A study of Homo sapiens with 4 samples.

Results

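Molecular chaperones of the heat shock protein families and the co-chaperones that work with them were followed in leukemia cells treated with GNE-987. The group held 47 genes, taken by family and known function: the HSP70, HSP110, HSP90 and small heat shock proteins, the HSP60 and CCT chaperonins, J proteins, BAG proteins, the adaptor STIP1 and the heat shock factors HSF1 and HSF2. All 47 were found among the 58735 genes of the expression table, and 45 of them passed a filter on low values (a mean of at least 0.5 FPKM, fragments scaled by exon length and by library size). The 2 left out, HSPA2 and HSPA6, are described with the other HSP70 genes. The rule used no measured value, but the members were chosen with earlier results of these data known.

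Heat shock proteins bind unfolded stretches of other proteins and use ATP to release them, which gives the client a chance to fold. J proteins deliver clients to HSP70 and start its ATP cycle, nucleotide exchange factors such as the BAG and HSP110 proteins reset it, and STIP1 passes clients on to HSP90, which finishes many kinases and receptors. Under stress the transcription factor HSF1 raises many of these genes in the cytosol, while the unfolded protein response raises those of the endoplasmic reticulum (ER), and leukemia cells are known to lean on HSP90 and HSP70.

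RNA-seq libraries came from cells labelled NB4, a human cell line from acute promyelocytic leukemia, with 2 control libraries from cells without drug and 2 libraries from cells exposed to GNE-987 at 25 nM over 24 h. The compound is a degrader, a molecule that brings a protein to the machinery that breaks proteins down. All 4 libraries share this 1 line, no other allele or agent is named, and the labels do not say that replicates were separate cultures, so P values measure the spread between these libraries, which may be technical. The dose and time are those the study gives for its RNA-seq.

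The depth on genes, recovered from the steps between FPKM values, was 19468075 and 19271410 reads for control and 12398873 and 12904376 reads for GNE-987. The promyelocyte markers fixed for a check of the label (MPO, ELANE, PRTN3, AZU1, CTSG and CD33) summed to between 3.27 and 3.73 FPKM in control and between 23.6 and 26.0 FPKM with GNE-987, with 1 to 3 of the 6 at 0 in each library. CTSG was at 0 in all 4 libraries and MPO at 0.0246 and 0 FPKM in control. The 8 erythroid markers, GATA1 and globin genes among them, summed to between 403 and 426 FPKM in control and between 656 and 769 FPKM with GNE-987, with none at 0. These markers go against the label, so the cells are called here the cells labelled NB4, and the part of this in any result below was not tested.

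The scale of the libraries moved with treatment as well. Reads of the mitochondrial genome made up 3.75% and 4.53% of recovered reads in control and 15.6% and 15.2% with GNE-987, and GAPDH, a glycolytic enzyme, was at 398 and 432 FPKM against 1501 and 1499 FPKM. The deposited values were already level by the median ratio between libraries. Scaling to the total of recovered reads instead moved the median log2 change of all tested genes by −0.74, quantile normalization by −0.42 and scaling to GAPDH by −1.77. For that reason ratios between members within a library, which no scaling factor can move, stand beside the fold changes. In bulk RNA a lower value can mean fewer cells expressing a gene or less RNA per cell, which cannot be told apart here.

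Heat shock elements, the sites that HSF1 binds, are runs of the units GAA and TTC in alternation with 2 free bases between units. They were searched on both strands in RefSeq promoters (GRCh38.p14, 250 bases before to 50 bases after a gene's start), which were given for 44 of the 47 members. Elements of 2 units lay in 20 of these 44 members (45.5%) and in 13.5% of all 35116 promoters. Here and below a member counts once if any of its promoters holds the element, while the background counts each promoter. The shares are thus in unlike units, which favours members with more than 1 promoter. Elements of 3 units, each of which also holds 2 elements of 2 units, lay in 7 of the 44 (15.9%) and in 0.490% of all promoters. The 7 were HSPA6, HSPA8, HSP90AA1, HSP90AB1, HSPD1, DNAJB6 and DNAJA1, whose element lies just after the start. HSPE1 was not counted, though the HSPD1 stretch lies upstream of that gene as well. The upstream stretches are printed to show the element in genes called higher, lower and neither, with its bases in capitals and coordinates on GRCh38. In HSPD1 a pair of 3-unit elements overlap and make 1 run of 18 capital bases:
DNAJB6 (chr7:157336853-157336905, plus strand): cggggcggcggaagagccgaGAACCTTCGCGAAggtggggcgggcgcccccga
HSP90AA1 (chr14:102087100-102087152, minus strand): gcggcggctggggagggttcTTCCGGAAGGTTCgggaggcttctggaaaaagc
HSP90AB1 (chr6:44247758-44247810, plus strand): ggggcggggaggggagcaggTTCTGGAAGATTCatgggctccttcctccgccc
HSP90AB1 (chr6:44247811-44247863, plus strand): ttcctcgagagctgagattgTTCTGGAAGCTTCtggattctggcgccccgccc
HSPA6 (chr1:161524446-161524498, plus strand): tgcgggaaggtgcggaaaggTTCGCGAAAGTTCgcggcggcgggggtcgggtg
HSPA8 (chr11:123062159-123062211, minus strand): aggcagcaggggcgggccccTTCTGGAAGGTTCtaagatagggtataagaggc
HSPA8 (chr11:123062334-123062386, minus strand): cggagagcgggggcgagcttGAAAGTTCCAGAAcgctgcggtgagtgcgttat
HSPD1 (chr2:197500048-197500090, minus strand): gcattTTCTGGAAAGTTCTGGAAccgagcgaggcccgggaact
The ER stress element, CCAAT followed after 9 free bases by CCACG, was searched on both strands in the same way. It lay in 0.0769% of all promoters and in HSPA5 and HSP90B1 alone among the 44 members. Their elements are shown in capitals with the free bases included, since these 2 chaperones of the ER are the textbook targets of the unfolded protein response:
HSP90B1 (chr12:103930196-103930254, plus strand): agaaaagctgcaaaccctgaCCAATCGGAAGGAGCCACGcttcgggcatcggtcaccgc
HSP90B1 (chr12:103930301-103930359, plus strand): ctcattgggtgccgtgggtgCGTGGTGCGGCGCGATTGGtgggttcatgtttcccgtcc
HSPA5 (chr9:125241371-125241429, minus strand): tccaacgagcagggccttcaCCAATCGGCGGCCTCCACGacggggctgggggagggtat
A match is a description of these letters and says nothing about binding in these cells.

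Genes were called higher or lower when limma gave P under 0.05 before adjustment and the fold change was beyond 2 or 0.5 on the log2(FPKM + 0.1) scale. By this rule 8 of the 45 members tested (17.8%) were higher with GNE-987 and 10 (22.2%) were lower. Among all 16668 genes tested 33.6% were higher and 24.9% were lower, and among the 10996 protein-coding ones 24% were higher and 31.7% were lower. Both shares of the members lay below those of protein-coding genes, a difference that was not tested. The median log2 fold change stood at −0.15 for members, −0.29 for protein-coding genes and 0.17 for all genes tested. Whatever their fold change, 41 of the 45 had a Benjamini-Hochberg adjusted P value under 0.05 over all genes in limma. The same held for 12941 of all 16668 genes and 9135 of the 10996 protein-coding ones, so this count is near the background. Counts for smaller lists below are to be read against these backgrounds and were not tested against them. Both GNE-987 libraries lay above both control libraries for 20 members and below them for 23, shares of 44.4% and 51.1%, where protein-coding genes gave 40.1% and 53.2%.

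The 8 higher members were DNAJA4, DNAJB2, DNAJB1, HSPA1B, DNAJB6, HSP90AB1, HSP90B1 and TCP1. The 10 lower members were DNAJA2, DNAJA3, DNAJB12, HSF2, HSPA4L, HSPH1, BAG2, HSPA8, HSPE1 and DNAJC7. Scaling to total reads or to GAPDH moved genes down and median-ratio scaling left them in place, so these could end higher calls but hardly lower ones. Quantile normalization moved genes unequally. HSP90AB1 went from 1.24 to −0.73, DNAJB6 from 1.38 to 1.34 and DNAJC3 from 0.617 to 0.622. DNAJA4 was the 1 higher member called higher at each of the 6 scalings and tests compared. It averaged 0.131 FPKM in control and 1.49 FPKM with GNE-987, so it passed the filter only through the group where it was high. At a filter of 1 FPKM it was not tested.

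**Figure D1:**
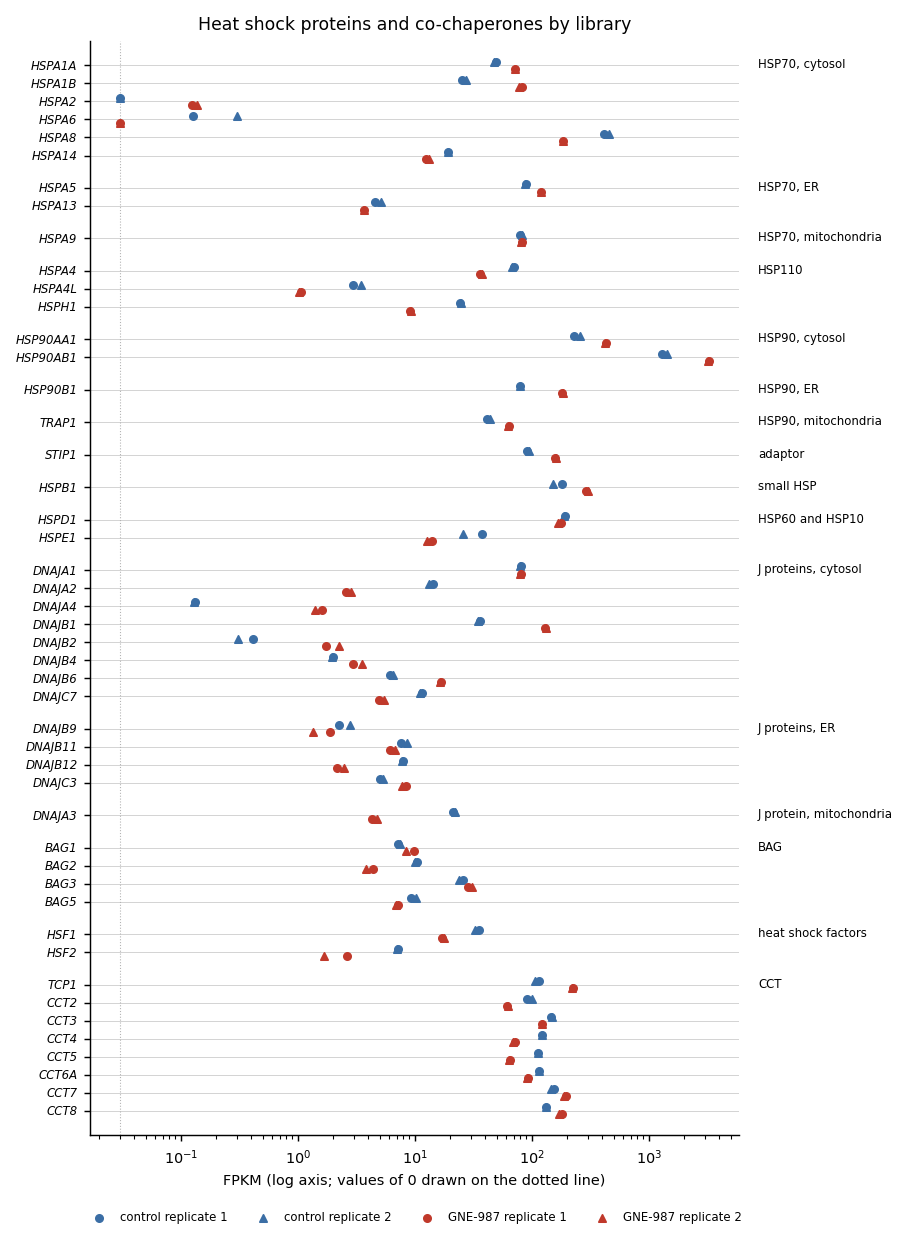
Expression of each of the 47 members in FPKM (log axis) by library, with control in blue and GNE-987 in red, circles for replicate 1 and triangles for replicate 2, and genes grouped by role. HSP90AB1 lies at the top of the range in all 4 libraries, and among the 45 members tested both GNE-987 libraries lie above both control libraries for 20 and below them for 23.

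**Figure D2:**
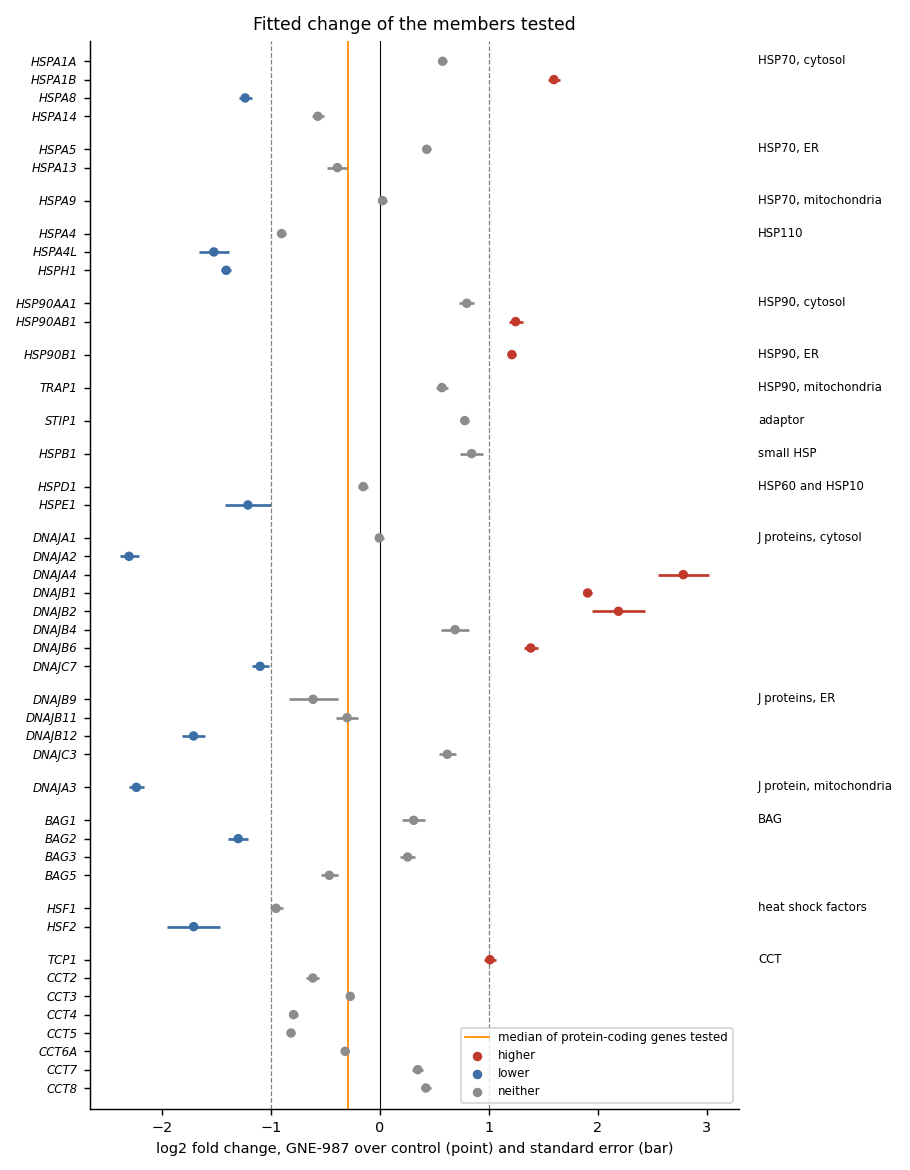
Fitted log2 fold change (GNE-987 over control) of the 45 members tested, with bars for the standard error, dashed lines at a fold change of 2 in either direction and an orange line at the median of protein-coding genes (−0.29). The 8 higher members are red, the 10 lower ones blue and the 27 others grey.

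The cytosolic HSP70 genes went different ways. HSPA8, the constitutive HSP70 that folds newly made proteins, was at 414 and 455 FPKM in control and 185 and 183 FPKM with GNE-987. HSPA1B, 1 of the 2 genes for the stress-inducible HSP70, was at 25.5 and 27.1 FPKM in control and 81.7 and 77.8 FPKM with GNE-987. HSPA1A, its near-identical neighbour, was at 49.2 and 47.9 FPKM in control and 72.4 and 72.2 FPKM with GNE-987. The groups did not overlap for any of the 3. HSPA8 was lower, with a log2 fold change of −1.24 ± 0.060 (SE; adjusted P value 0.000351, limma), and its value ranged down to −3.09 at the other scalings. HSPA1B was higher at 1.60 ± 0.056 (adjusted P value 0.000203, limma), but it did not pass at 0.82 with total reads or limma-voom and at −0.25 with GAPDH. HSPA1A gave 0.57 ± 0.039 and did not pass the fold threshold.

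HSPA1A (chr6:31815543-31817946) and HSPA1B (chr6:31827738-31830254) code for nearly the same protein, so reads can be assigned to either copy and their split is uncertain. Their sum, which a wrong split would not move, was 74.7 and 75.0 FPKM in control and 154 and 150.0 FPKM with GNE-987. That is a log2 difference of 1.02 on the deposited scale. Scaling to total reads shifts every value by −0.78 and scaling to GAPDH by −1.85, the latter larger than this difference. The share of HSPA1A and HSPA1B in the summed cytosolic HSP70 (with HSPA2, HSPA6 and HSPA8) was 15.3% and 14.1% in control and 45.5% and 45.0% with GNE-987. That is a difference of 30.5 percentage points, with an SD of 0.805 points in control and 0.324 with GNE-987 (n = 2 each). The 2-sided exact permutation test of 2 against 2 libraries gave p = 0.333, the smallest it can give, so no within-library quantity here could pass 0.05. An unnamed lncRNA shares 920 exon bases with HSPA1B on the same strand and was at or below 1.02 FPKM.

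Of the remaining cytosolic HSP70 genes, 1 was tested and did not pass the fold threshold. HSPA14, a ribosome-bound HSP70, was at 19.4 and 19.2 FPKM in control and 12.6 and 13.3 FPKM with GNE-987, a log2 fold change of −0.57. HSPA2, known for its role in male germ cells, had no reads in control and 0.124 and 0.137 FPKM with GNE-987, from 6 and 7 recovered reads. HSPA6, which is induced by strong stress, was at 0.128 and 0.305 FPKM in control, from 7 and 16 recovered reads, and at 0 in both GNE-987 libraries. At such depth neither gene was tested. HSPA6 has the 3-unit heat shock element printed above, as has HSPA8.

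HSP110 proteins and BAG proteins exchange the nucleotide of HSP70. HSPA4L was at 2.97 and 3.45 FPKM in control and 1.07 and 1.02 FPKM with GNE-987. HSPH1 (HSP105), a cytosolic HSP110, was at 24.4 and 24.7 FPKM in control and 9.12 and 9.20 FPKM with GNE-987. Both were lower, HSPA4L by −1.53 ± 0.14 and HSPH1 by −1.41 ± 0.048 on the log2 scale (adjusted P values 0.00131 and 0.000199, limma), and HSPA4 gave −0.90 without passing the fold threshold. BAG2, which holds back the HSP70 partner ligase CHIP, was at 10.4 and 10.1 FPKM in control and 4.35 and 3.85 FPKM with GNE-987. It was lower at −1.30 ± 0.089 (adjusted P value 0.000683, limma). BAG2 shares 42.7% of its exon bases with RAB23 on the opposite strand, and RAB23 had a log2 fold change of 0.00.

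BAG3, the stress-inducible BAG protein that links HSP70 to autophagy, was at 25.7 and 23.9 FPKM in control and 28.4 and 30.7 FPKM with GNE-987. Its log2 fold change of 0.25 ± 0.069 was under the threshold. BAG1 and BAG5 gave 0.31 and −0.47, and BAG1 had an adjusted P value of 0.062 in limma. Of 7 other nucleotide exchange factors for HSP70 (HSPBP1, SIL1, HYOU1, GRPEL1, GRPEL2, BAG4 and BAG6), none was called by the limma rule. Their values lay between −0.88 and 0.70, with a median of −0.14. An adjusted P value under 0.05 (limma) was found for 5 of them, where 9135 of 10996 protein-coding genes had one.

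HSP90AB1 had the highest value of all members in every library. This gene, the constitutive cytosolic HSP90, was at 1308 and 1435 FPKM in control and 3274 and 3218 FPKM with GNE-987. HSP90AA1, the inducible form, was at 231 and 258 FPKM in control and 428 and 421 FPKM with GNE-987. Neither pair of groups overlapped on the deposited scale. HSP90AB1 was higher at 1.24 ± 0.064 (adjusted P value 0.000384, limma), while its value was 0.47 with total reads or limma-voom, −0.73 after quantile normalization and −0.61 after scaling to GAPDH, none of which passed. It also no longer passed without either one of the GNE-987 libraries (1.23 and 1.26). HSP90AA1 gave 0.80 ± 0.068, below the fold threshold.

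Within a library, HSP90AA1 made up 15.0% and 15.3% of the cytosolic HSP90 in control and 11.6% in both GNE-987 libraries, a difference of −3.58 percentage points (SD 0.157 in control and 0.00608 with GNE-987). HSP90AB1 alone made up 31.0% and 32.9% of the summed FPKM of all 47 members in control and 50.1% and 49.9% with GNE-987. HSPA8 made up 9.80% and 10.4% of that sum in control and 2.82% and 2.84% with GNE-987. All 47 members together made up 1.93% and 1.92% of all FPKM in control and 1.05% in both GNE-987 libraries. A larger share of the group is thus not by itself a larger share of all FPKM. The ratio of HSP90AB1 to HSPA8 was 3.16 and 3.15 in control and 17.7 and 17.6 with GNE-987, so the main constitutive HSP90 and HSP70 moved apart whatever the scaling factor. Both promoters hold a pair of the 3-unit heat shock elements printed above.

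STIP1, which binds HSP70 and HSP90 at once, was at 91.5 and 94.6 FPKM in control and 159 and 160 FPKM with GNE-987. Its log2 fold change was 0.78 ± 0.039, under the threshold. Of 12 further HSP90 co-chaperones tested, 1 was higher and 5 were lower, with a median of −0.77. Protein-coding genes gave 24% higher and 31.7% lower, and the difference from these counts was not tested. The higher one was CDC37, which brings kinases to HSP90, at 79.3 and 79.0 FPKM in control and 189 and 188 FPKM with GNE-987. The largest decrease was PPP5C, a phosphatase bound to HSP90, at 16.1 and 15.2 FPKM in control and 2.88 and 3.82 FPKM with GNE-987.

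In the ER, HSP90B1 and HSPA5 differed in size of change. HSP90B1 (GRP94), which folds receptors and integrins, was at 79.2 and 79.0 FPKM in control and 180 and 186 FPKM with GNE-987. HSPA5 (BiP), the HSP70 of the ER, was at 89.9 and 87.1 FPKM in control and 119 FPKM in both GNE-987 libraries. The groups were apart for both genes on the deposited scale. HSP90B1 was higher at 1.21 ± 0.038 (adjusted P value 0.000183, limma) as deposited, but not with total reads or limma-voom (0.43 each), quantile normalization (0.23) or GAPDH (−0.64). HSPA5 gave 0.43 ± 0.039 without passing the fold threshold. The ratio of HSP90B1 to HSPA5 was 0.881 and 0.906 in control and 1.52 and 1.56 with GNE-987. The ratio of HSPA5 to HSPA8 was 0.217 and 0.191 in control and 0.645 and 0.652 with GNE-987.

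Of the 4 J proteins that serve the ER, 1 was called, and it was lower. DNAJB12, a membrane J protein of ER quality control, was at 7.95 and 7.83 FPKM in control and 2.18 and 2.51 FPKM with GNE-987. It was lower at −1.71 ± 0.10 (adjusted P value 0.000505, limma). DNAJC3, which is also an inhibitor of the kinase PERK, gave 0.62, DNAJB11 gave −0.30 and DNAJB9 gave −0.61 with an adjusted P value of 0.0685 in limma, and HSPA13 gave −0.39. Of the 6 members known as targets of the unfolded protein response (HSPA5, HSPA13, HSP90B1, DNAJB9, DNAJB11 and DNAJC3), 1 was higher and 0 were lower, with a median of 0.06. An adjusted P value under 0.05 (limma) was found for 5 of the 6. Among protein-coding genes 24% were higher, 31.7% lower and 9135 of 10996 under that adjusted P value. The counts of so short a list are not read as a result.

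Among 10 other ER folding genes tested of 11 listed, 2 were higher and 2 were lower, with a median of 0.57. At a protein-coding background of 24% higher and 31.7% lower, these counts are not read as a result about the list. The largest increase was P4HB, a protein disulfide isomerase, at 75.9 and 75.8 FPKM in control and 227 FPKM in both GNE-987 libraries. The largest decrease was SDF2L1, which works with BiP, at 239 and 232 FPKM in control and 87.9 and 83.2 FPKM with GNE-987.

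Of the 5 mitochondrial members, 0 were called higher and 2 lower, and 4 had an adjusted P value under 0.05 in limma. Protein-coding genes gave 24% higher, 31.7% lower and 9135 of 10996 under that adjusted P value, so these counts are not read as a result. DNAJA3, the J protein of the mitochondrial matrix, was at 21.2 and 22.0 FPKM in control and 4.31 and 4.71 FPKM with GNE-987. HSPE1 (HSP10), the lid of the HSP60 barrel, was at 37.8 and 25.7 FPKM in control and 14.0 and 12.8 FPKM with GNE-987. HSPD1 (HSP60), the barrel itself, was at 194 and 189 FPKM in control and 176 and 168 FPKM with GNE-987. DNAJA3 was among the largest decreases of the whole group, and the HSPE1 control libraries lay far apart from each other. DNAJA3 was lower at −2.24 ± 0.072 (adjusted P value 0.000187, limma). HSPE1 was lower at −1.21 ± 0.21 (adjusted P value 0.00816, limma) and did not pass when control replicate 1 (−0.94) or either GNE-987 library (−1.27 and −1.15) was left out. HSPD1 gave −0.15 ± 0.044.

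HSPD1 (chr2:197486584-197516737, minus strand) and HSPE1 (chr2:197500140-197503449, plus strand) lie head to head and share 135 exon bases. The heat shock element stretch printed for HSPD1 ends before the HSPE1 start, so it lies upstream of HSPE1 too. It was counted for HSPD1 only, since no element was found in the promoter window given for HSPE1. HSPE1 also shares 192 bases with the readthrough gene HSPE1-MOB4, which was at or below 0.403 FPKM, and 26 pseudogenes carry the name of HSPE1, 1 of which was called lower. The ratio of HSPD1 to HSPE1 was 5.14 and 7.36 in control and 12.6 and 13.1 with GNE-987, but the sign of this difference turned after quantile normalization.

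HSPA9 (mortalin), the HSP70 of the matrix, was at 79.0 and 82.7 FPKM in control and 83.0 and 81.3 FPKM with GNE-987, with overlapping groups. Its log2 fold change was 0.02 ± 0.044 (adjusted P value 0.651, limma). TRAP1, the mitochondrial HSP90, was at 41.1 and 44.1 FPKM in control and 63.5 and 62.9 FPKM with GNE-987, a log2 fold change of 0.57 ± 0.052 that did not pass the fold threshold. The ratio of TRAP1 to DNAJA3 was 1.94 and 2.01 in control and 14.7 and 13.3 with GNE-987. TRAP1 shares 28.5% of its exon bases with DNASE1 on the opposite strand, which was at or below 1.62 FPKM.

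The J proteins of the cytosol held the largest changes in both directions. DNAJB1 (HSP40), the main partner of stress-induced HSP70, was at 35.9 and 34.4 FPKM in control and 131 and 133 FPKM with GNE-987. DNAJA2, a partner of HSPA8, was at 14.2 and 13.3 FPKM in control and 2.57 and 2.84 FPKM with GNE-987. DNAJA1, which also pairs with HSPA8, was at 81.0 and 79.8 FPKM in control and 81.2 and 78.8 FPKM with GNE-987. On the deposited scale the groups were apart for DNAJB1 and DNAJA2, in opposite directions, and overlapped for DNAJA1. DNAJB1 was higher at 1.91 ± 0.044 (adjusted P value 0.00013, limma) and DNAJA2 was lower at −2.30 ± 0.087 (adjusted P value 0.000224, limma). DNAJB1 gave 0.05 when scaled to GAPDH, the 1 scaling at which it did not pass. The ratio of DNAJB1 to DNAJA2 was 2.54 and 2.58 in control and 50.8 and 47 with GNE-987. DNAJB1 shares 525 exon bases (6.41%) with TECR on the opposite strand, which was also higher, at 1.68.

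DNAJA4, a J protein known as a target of the sterol-sensing SREBP factors and of HSF1, was at 0.132 and 0.130 FPKM in control and 1.60 and 1.39 FPKM with GNE-987. DNAJB2, a J protein best known from neurons, was at 0.413 and 0.307 FPKM in control and 1.75 and 2.25 FPKM with GNE-987. These 2 genes had the largest increases on the log2 scale, 2.78 ± 0.24 and 2.19 ± 0.24 (adjusted P values 0.00114 and 0.00226, limma), from low levels. DNAJA4 had 20 and 19 recovered reads in control and 88 and 81 with GNE-987, and DNAJB2 had 56 and 40 against 86 and 117. With so few reads the size of these changes is imprecise. DNAJA4 kept its call at every scaling, and DNAJB2 did at each but GAPDH, where it gave 0.55. Both averaged under 0.5 FPKM in control and passed the filter only through GNE-987, so neither could have been called lower.

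DNAJB6, which keeps aggregation-prone proteins soluble, was at 6.12 and 6.48 FPKM in control and 16.8 and 16.4 FPKM with GNE-987. It was higher at 1.38 (adjusted P value 0.000296, limma), but did not pass with total reads (0.61), limma-voom (0.62) or GAPDH (−0.45). DNAJC7, which binds HSP70 and HSP90, was at 11.6 and 11.0 FPKM in control and 4.98 and 5.44 FPKM with GNE-987. DNAJC7 was lower at −1.10 (adjusted P value 0.000753, limma), close to the fold threshold. DNAJB4 gave 0.69 and DNAJA1 gave −0.01. Of 26 further J proteins tested of 30 listed, 4 were higher and 10 were lower, with a median of −0.54. The background among protein-coding genes was 24% higher and 31.7% lower, and the difference was not tested. The largest increase was DNAJB5, at 0.214 and 0.161 FPKM in control and 15.1 and 14.0 FPKM with GNE-987. DNAJB5 passed the filter only through GNE-987. The largest decrease was DNAJC2, a J protein of the ribosome, at 10.4 and 11.1 FPKM in control and 2.73 and 2.31 FPKM with GNE-987.

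**Figure D3:**
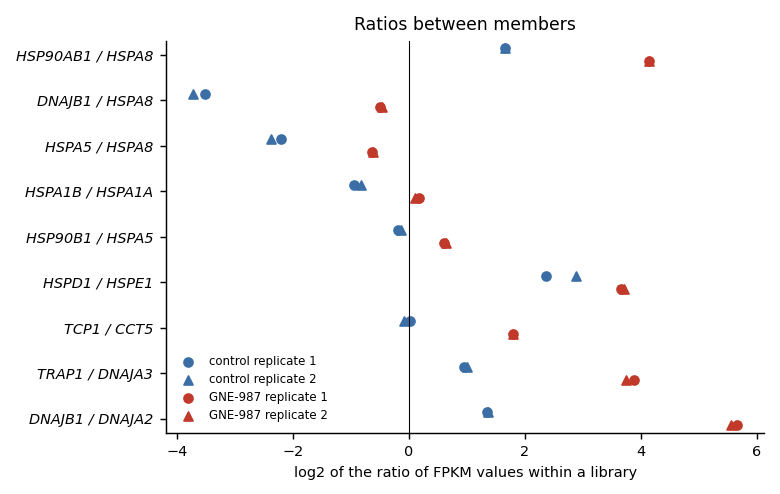
Log2 ratio of the FPKM values of pairs of members within each library, with control in blue and GNE-987 in red, circles for replicate 1 and triangles for replicate 2. No scaling factor moves these values. Both GNE-987 libraries lie to the right of both control libraries for all 9 pairs. Only the HSPD1 to HSPE1 pair was planned. The other pairs and their order were picked by hand, so the shared side is not a result. The DNAJB1 to DNAJA2 ratio (2.54 and 2.58 in control, 50.8 and 47 with GNE-987 on the linear scale) lies furthest right with GNE-987.

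HSPB1 (HSP27), the small heat shock protein that holds unfolded clients without ATP, was at 182 and 151 FPKM in control and 292 and 301 FPKM with GNE-987. Its log2 fold change was 0.84 ± 0.10 (adjusted P value 0.00311, limma), under the fold threshold. Of 9 other small heat shock proteins listed, 8 were matched in the table and 4 were tested, of which 2 were higher. Protein-coding genes gave 24% higher and 31.7% lower, and the counts of so short a list are not read as a result. The larger increase was HSPB9, a testis small heat shock protein, at 0.271 and 0.0941 FPKM in control and 4.29 and 5.13 FPKM with GNE-987. The other was HSPB6, with a mean of 0.167 FPKM in control and 1.53 FPKM with GNE-987. Both passed the filter only through GNE-987, so neither could have been called lower.

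Both heat shock factors had lower values with GNE-987, without overlap. HSF1, the factor that turns on heat shock genes, was at 35.1 and 32.9 FPKM in control and 17.1 and 17.9 FPKM with GNE-987. HSF2, which can pair with HSF1 on DNA, was at 7.25 and 7.04 FPKM in control and 2.66 and 1.68 FPKM with GNE-987. HSF2 passed both thresholds at −1.71 ± 0.24 (adjusted P value 0.00459, limma), and HSF1 stayed just short of the fold threshold at −0.95 ± 0.060 (adjusted P value 0.000562, limma). The GNE-987 libraries of HSF2 rest on 60 and 40 recovered reads. Among 4 other HSP70-like genes and heat shock factors listed (HSPA12A, HSPA12B, HSF4 and HSF5), HSF4 was the 1 tested and was lower, at 2.83 and 2.78 FPKM in control and 1.42 and 1.24 FPKM with GNE-987.

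Of the 16 members tested that are known to be induced by HSF1 under heat stress, 4 were higher (25%), 4 were lower (25%) and 8 passed neither way, with a median of 0.63. Protein-coding genes as a whole gave 24% and 31.7%, so these shares are close to the background and are not read as a result about the list. The 4 higher were HSPA1B, HSP90AB1, DNAJB1 and DNAJA4 and the 4 lower HSPA8, HSPA4L, HSPH1 and HSPE1. Members with the 3-unit heat shock element in a promoter window of their own are given by gene. HSP90AB1 and DNAJB6 were higher, HSPA8 was lower, and HSP90AA1, HSPD1 and DNAJA1 passed neither way at 0.80, −0.15 and −0.01.

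CCT, the chaperonin ring that folds actin and tubulin, is built from 8 subunits in equal numbers. TCP1, its first subunit, was at 115 and 106 FPKM in control and 224 and 221 FPKM with GNE-987. CCT5 was at 113 FPKM in each control library and 64.6 and 63.5 FPKM under GNE-987. The 2 subunits had nearly the same level in control and different levels with GNE-987. TCP1 was higher at 1.01 ± 0.054 (adjusted P value 0.000413, limma), right at the fold threshold, and did not pass with 0.23 at total reads or limma-voom, −0.13 after quantile normalization and −0.84 after scaling to GAPDH. It also fell short of the threshold without GNE-987 replicate 1 (1.00) or control replicate 2 (0.95). The other 7 subunits passed neither way, with CCT7 and CCT8 at 0.35 and 0.42 and CCT2, CCT3, CCT4, CCT5 and CCT6A between −0.82 and −0.27. All 8 had an adjusted P value under 0.05 in limma, as had 9135 of 10996 protein-coding genes. With limma-voom on recovered reads 0 were called higher and 5 lower, at a background of 25.9% higher and 40.6% lower among all genes in that fit.

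Within each library the subunits moved apart. The coefficient of variation of FPKM over the 8 subunits was 16.6% and 14.8% in control and 51.3% and 50.6% with GNE-987, a difference of 35.3 percentage points (SD 1.34 in control and 0.50 with GNE-987, exact permutation p = 0.333). TCP1 made up 11.6% and 10.8% of the summed CCT FPKM in control and 22.1% and 22.3% with GNE-987. CCT4 made up 12.3% and 12.5% in control and 7.05% and 6.98% with GNE-987. The ratio of TCP1 to CCT5 was 1.01 and 0.943 in control and 3.47 and 3.48 with GNE-987. After quantile normalization the difference in the coefficient of variation was 23.1 points.

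**Figure D4:**
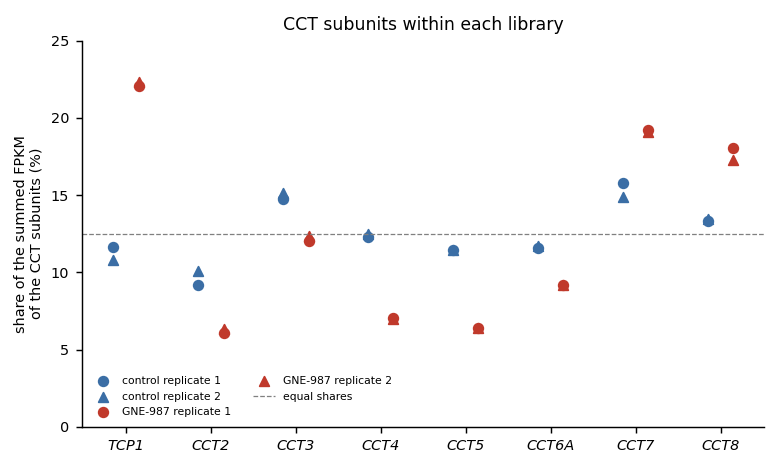
Share of each of the 8 CCT subunits in their summed FPKM within each library (percent), with control in blue and GNE-987 in red, circles for replicate 1 and triangles for replicate 2, and a dashed line at equal shares. TCP1, CCT7 and CCT8 lie higher with GNE-987 and the other 5 lower, with TCP1 at 22.1% and 22.3% against 11.6% and 10.8%.

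TCP1 shares 454 exon bases with ACAT2 on the opposite strand and 140 with SNORA29, and ACAT2 was level at −0.03. Prefoldin hands actin and tubulin to CCT. Of its 6 subunits, 1 was higher and 2 were lower, at a background of 24% higher and 31.7% lower among protein-coding genes. The higher one was PFDN5, at 24.7 and 19.9 FPKM in control and 68.1 and 69.6 FPKM with GNE-987. The largest decrease was PFDN2, at 81.3 FPKM in each control library and 19.1 and 19.9 FPKM with GNE-987. 

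Exons of 23 members overlap those of another gene in GENCODE release 44, on the opposite strand for 20 of them. The library kit named in the labels does not keep strand and the counting setting is not given in the sources used here, so reads from such stretches cannot be told apart. By name, 94 pseudogenes belong to members. Of these, 38 were above 0 in any library, 9 were tested, 3 were higher (2 of HSPA8 and 1 of HSPD1) and 1 was lower, and the highest value was 11.9 FPKM. Among all genes tested 33.6% were higher and 24.9% lower, so these counts are not read as a result. The 3 higher ones rest on few reads. HSPA8P3 had 4 and 4 in control and 6 and 10 with GNE-987, and HSPA8P13 had 8 and 2 against 6 and 7. HSPD1P6 had 0 and 0 against 24 and 24, so it passed the filter only through GNE-987.

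The counts of the group as a whole depended on the scaling of the libraries. As deposited, 8 members were higher and 10 lower, and scaled to the total of recovered reads 3 were higher and 22 lower, where 25.1% and 39.9% of all tested genes were. With quantile normalization 5 were higher and 19 lower, against 25.4% and 32.8% of all tested genes. With GAPDH 1 was higher and 37 lower, against 18.2% and 58.4%. Set against all tested genes under the same scaling, the median of the members differed from theirs by −0.33 as deposited, −0.37 with total reads, −0.55 with quantile normalization and −0.41 with GAPDH. Of the 8 higher members, 7 lay above the median of all genes at each of the 6 scalings and tests, the exception being HSP90AB1, and all 10 lower members lay below it.

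**Figure D5:**
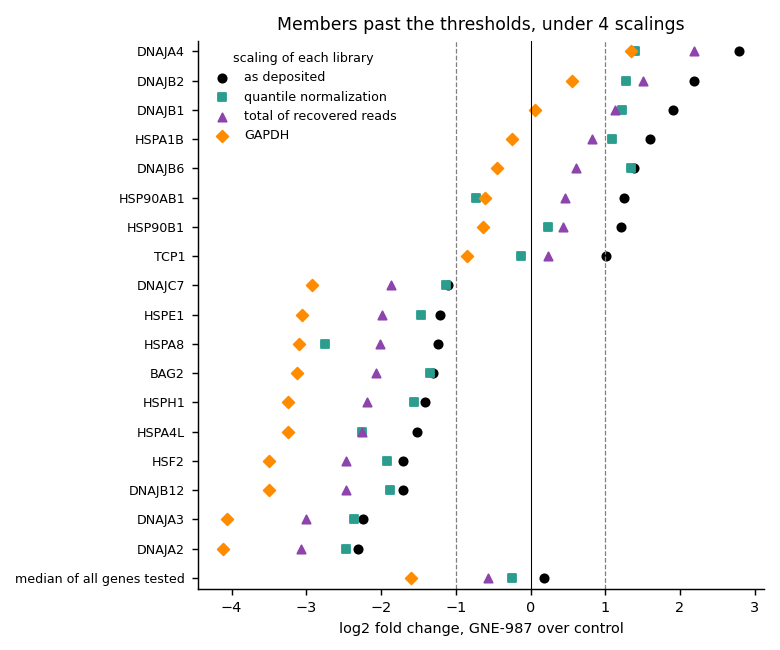
Log2 fold change (GNE-987 over control) of the 18 members past the thresholds under 4 scalings of the libraries, with the median of all genes tested in the last row and dashed lines at a fold change of 2 in either direction. The 3 other scalings move the median of all genes to the left, from 0.17 to between −0.24 and −1.59. The members shown move left as well, by unequal amounts under quantile normalization. DNAJA4 alone among the higher ones stays right of the upper dashed line.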

How the data were processed

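RNA-seq was done on 2 control and 2 GNE-987 libraries, and groups and replicate numbers were taken from the sample labels. The authors filtered the reads and mapped them with HISAT (HISAT2 2.0.5 and hg38 in the submitters' processing notes), ran DESeq2 for differential expression and deposited 1 FPKM value for each gene in each library. The counting program, its strand setting and the annotation are not given in the sources used here. All 4 value columns were used. Identifiers were matched to GENCODE release 44, which held 58207 of 58735.

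FPKM values are not counts, so genes averaging under 0.5 FPKM were dropped and log2(FPKM + 0.1) values of the other 16668 were fitted with limma 3.58.1 in R 4.3.3 (empirical Bayes with an intensity trend, no replicate block). Fold changes are on this scale, which understates those of low genes. A gene that passes the filter through 1 group alone can be called in that direction only. P values were adjusted by Benjamini-Hochberg over all tested genes. Within-library shares and ratios were compared with a 2-sided exact permutation test. Since 1 read is 1 step in FPKM, read numbers could be recovered, within 0.01 of a whole number. At the GENCODE exon length, 53.0% of the 32895 genes above 0 gave whole reads in all 4 libraries, 15331 did at another length, a weaker test, and 133 at none.

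The members and lists were chosen with earlier results of these data known. Values in every library are given for 13 members named in advance, the 3 largest increases and decreases, the largest change of each role, and members under the filter, and from each other list at most the largest increase and decrease that passed. DNAJA1, HSPA14, HSPH1, DNAJB6, DNAJC7 and CCT5 were given in full after their values were seen. Alternatives were other scalings, pseudocounts, filters, thresholds, limma-voom, a replicate block and leaving out each library. In simulated data 182 of 200 genes changed 4-fold were called (91.0%), with 225 calls (1.37%) among the unchanged genes. In a second simulation the reads of all 16092 genes were recovered. It held only genes with whole reads at the GENCODE exon length and was given that length. The search for another length, on which the reads of most members rest, was therefore not tested.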

Additional observations from a re-analysis of the deposited data

How the results depend on the processing

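The members called higher (8) and lower (10) became 3 and 22 with limma-voom on recovered reads, 3 and 22 when scaled by total recovered reads, 5 and 19 with quantile normalization, and 1 and 37 with scaling to GAPDH. The HSF1-induced members called higher (4) became 2, 2 and 1 with limma-voom, total reads and GAPDH, and those called lower (4) became 12 with GAPDH. CCT subunits called higher (1) became 0 under each of these 4 settings and in the test against a fold change of 2, and 0 to 1 when single libraries were left out. CCT subunits called lower (0 of 8, limma, with all 8 under an unadjusted P value of 0.05) became 5, 5, 5 and 7 with limma-voom, total reads, quantile normalization and GAPDH. Direction turned for HSPA1B (−0.25), HSP90B1 (−0.64), DNAJB6 (−0.45), HSP90AB1 (−0.61) and TCP1 (−0.84) with GAPDH, and for HSP90AB1 (−0.73) and TCP1 (−0.13) with quantile normalization. These follow from the shift each scaling puts on all genes, given in the report, except for quantile normalization, where the cause was not tested.

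Quantile normalization also moved the within-library quantities. The HSP90AA1 share difference became −1.61 points, that of HSPA1A and HSPA1B 39.0 points, that of the CCT spread 23.1 points, and the difference of the HSPD1 to HSPE1 log2 ratio turned from 1.06 to −0.083. Median-ratio scaling, both pseudocounts, both filters and adjusted P values kept the counts of calls above within 1.5 times. Without the filter HSPA2 and HSPA6 were called as well, which made 9 higher and 11 lower. With a filter of 1 FPKM DNAJA4 was not tested, which left 7 higher.

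The labels number the replicates alike in both groups, but same-numbered libraries did not deviate together (r = 0.00537 over genes). With 2 libraries in each group this cannot show whether same-numbered libraries were prepared as pairs. With a replicate block 8 members were higher and 10 lower. Depth limits the low genes, since DNAJA4 rests on 19 to 88 reads in each library and HSF2 on 40 and 60 in the GNE-987 libraries.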
